A study of Homo sapiens with 32 samples.

Results

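MDA-MB-468 cells, an established line from a triple-negative breast tumor, were sequenced after 72 h in salinomycin (Sal), and these libraries were compared with control libraries of the same time point. The 2 groups were chosen by their labels and hold 8 of the 32 libraries of the series. The control cells received PBS for 72 h, and the treated cells received Sal at 0.5 µM for 72 h. Each group had 4 libraries, 1 without a replicate number and 3 numbered 1 to 3, which the study calls biological replicates. All come from this 1 line, so the p-values below cover only the spread between these libraries, which may be technical. Cells were plated in flasks the night before treatment, and RNA came from whole cultures. The study's methods describe drug stocks in DMSO, while the labels name only PBS for the control. Cells treated with Sal for 24 h, with their own 24 h controls, and cells treated with dasatinib (Das, 15 µM) or with both drugs (S+D) for 72 h are used below only where they bear on the same genes.

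Salinomycin is a polyether antibiotic that binds alkali metal ions, above all potassium, and carries them across membranes. The endoplasmic reticulum (ER), where secreted and membrane proteins fold, answers a surplus of unfolded protein with a set of transcriptional programs, the unfolded protein response: the sensor ATF6 and the spliced form of XBP1 raise chaperones and degradation factors, and the kinase PERK acts through the transcription factor ATF4. In dividing cells, genes for DNA replication and mitosis are switched on in successive waves by the E2F factors and by the MYBL2 and FOXM1 factors. MDA-MB-468 is a basal-like line with an amplified EGFR gene, and it carries deletions of the tumor suppressor genes RB1 and SMAD4.

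The 4 control libraries held between 30852148 and 38613627 counted reads and the 4 Sal libraries between 29143860 and 40234975, and levels are given as CPM, the count per 1e+06 reads of the library after scaling by trimmed mean of M values. Of 7 epithelial markers of this line tested, EGFR included, none rose and 4 fell, and their summed level was 11711 to 12968 CPM in the controls and 7184 to 7933 CPM with Sal. RB1 and SMAD4, both deleted in this line, were at 0.979 and 0.219 CPM in the controls and at 1.23 and 0.241 CPM with Sal. The receptor genes ESR1, PGR and ERBB2, which the line is classed as lacking, summed to 118 to 153 CPM in the controls and 65.5 to 85.02 CPM with Sal, most of it ERBB2, and PGR had at most 2 counts in any library. Of the 7 fibroblast markers searched, 4 had at most 3 counts in every library, and the summed level ran from 24.6 to 33.3 CPM in the controls and from 54.8 to 77 CPM with Sal, nearly all of it COL1A1. Of the 5 leukocyte markers, 3 had at most 3 counts in every library, and the sum, nearly all CD14, was 24.9 to 32.3 CPM in the controls and 5.94 to 17.7 CPM with Sal. The 5 markers of ER-positive luminal lines summed to 73.4 to 109.6 CPM in the controls and 43.6 to 64.1 CPM with Sal, with TFF1 at 4 counts or fewer in every library. The 3 endothelial markers matched summed to 5.19 to 7.93 CPM in the controls and 0.491 to 2.1 CPM with Sal, and the part of these markers in the results was not tested. Because these are bulk libraries, fewer cells of a kind and less RNA per cell cannot be told apart.

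On principal component analysis of the 8 libraries, the first component (82.3% of the variance) separated the groups, with the controls between -85.11 and -77.1 and the Sal libraries between 69.12 and 87.53. The second component (8.78%) set the unnumbered library of each group, at -35.49 for the control and -53.99 for Sal, apart from the 6 numbered libraries, which lay between 6.24 and 23.2. The labels do not say how the unnumbered libraries differ, and a term for them was therefore included in the model. They also gave a check on libraries that a fit of the numbered libraries does not use. With the numbered libraries alone, 1556 genes (9.41% of those tested) were higher and 1741 (10.5%) lower with Sal at an adjusted p under 0.01 and a log2 fold change beyond 1.5. In the unnumbered pair, 1539 of the 1556 (98.9%) were also higher with Sal and 1729 of the 1741 (99.3%) also lower, where 49.5% of all tested genes were higher in that pair. The median log2 ratio of the unnumbered pair was 1.85 for the higher genes and -1.68 for the lower genes. These sizes were not set against those of the numbered libraries, because the genes were chosen for a large change there and the ratio of the pair holds an added 0.1 CPM.

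**Figure D1:**
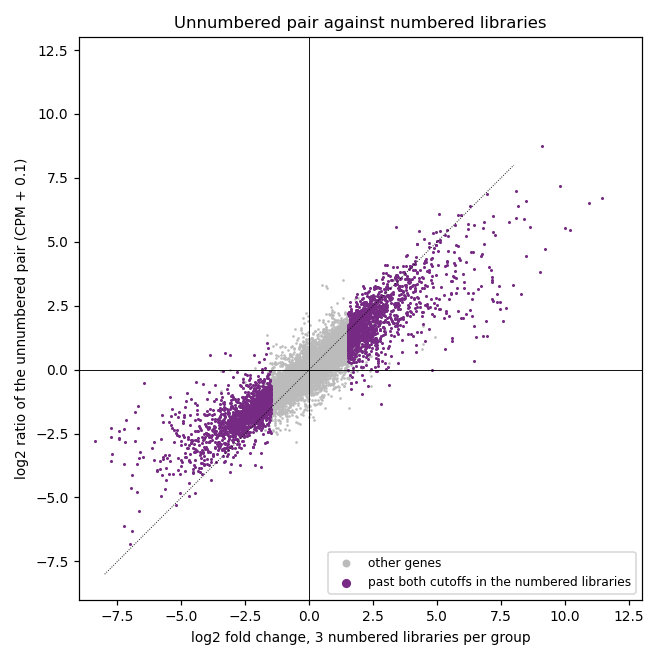
Each point is a gene, with its log2 fold change (Sal against control, 72 h) in the 3 numbered libraries per group on the x axis and the log2 ratio of the unnumbered Sal library to the unnumbered control library, after adding 0.1 CPM to each, on the y axis. Purple genes passed both cutoffs in the numbered libraries, the dotted line marks equal values, and 1539 of the 1556 purple genes on the right lie above 0 on the y axis.

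The transcriptome at 72 h was rearranged in both directions. Of 16682 genes tested, 1556 (9.33%) were higher and 1627 (9.75%) lower with Sal past both cutoffs, and at the adjusted p alone 5092 (30.5%) were higher and 5265 (31.6%) lower. Because so many genes passed the p cutoff alone, the counts for gene groups below are to be read against these shares. In the text, a gene rose or fell where its adjusted p was under 0.01. The higher genes came mostly from low levels: 863 of the 1556 (55.5%) were under 1 CPM in the controls, and many of these entered the test only through their counts with Sal. Among the lower genes, 253 of 1627 (15.6%) were under 1 CPM in the controls and 223 (13.7%) were above 100 CPM. Long non-coding RNA genes made up 414 of the higher genes (26.6%), 167 of the lower genes (10.3%) and 12.5% of the genes tested. The 4 values of a gene in each group are listed below in the order unnumbered library, then replicates 1, 2 and 3, means are given ± SD (n = 4), CPM is not corrected for gene length, and the error of a fold change is its standard error. Adjusted p-values come from the quasi-likelihood test of edgeR and are adjusted over all genes tested by the Benjamini-Hochberg method.

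**Figure D2:**
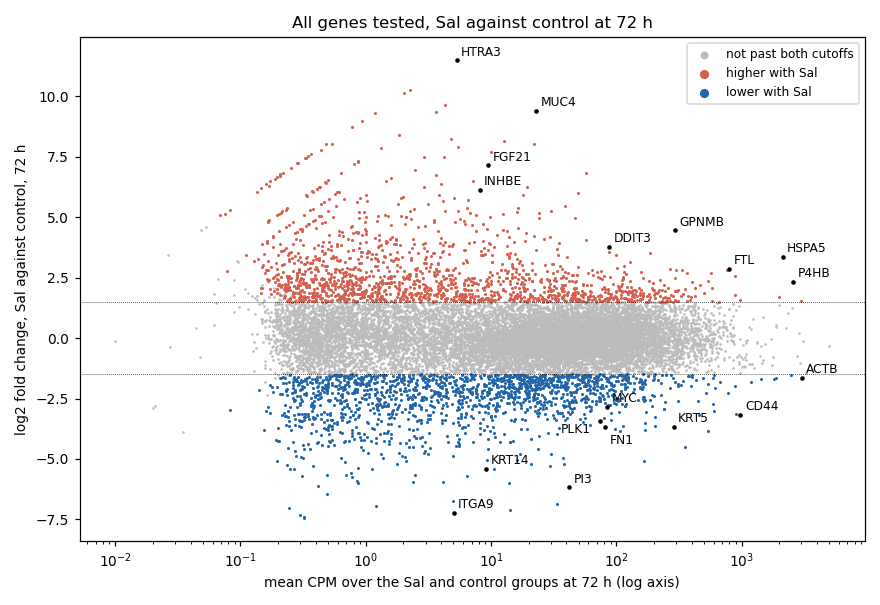
Log2 fold change of all 16682 genes tested (y axis, Sal against control at 72 h) against the mean CPM of both groups (x axis, log scale). Genes past both cutoffs are red (1556 higher) or blue (1627 lower), the dotted lines mark log2 fold changes of 1.5 and -1.5, and the diagonal rows of red points at the left are genes with no or very few counts in the controls, whose fitted fold change depends on the prior count.

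Genes of ER protein folding led the gains in CPM. HSPA5 was at 409, 367, 384 and 355 CPM in the controls and at 4035, 3705, 3957 and 3820 CPM with Sal. HSPA5 encodes BiP, the main chaperone of the ER lumen, and all 4 Sal libraries stood above all 4 controls, at 10.3 times the control level (log2 fold change 3.36 ± 0.28, adjusted p = 1.36e-08). P4HB was at 835, 827, 855 and 912 CPM in the controls and at 3927, 4799, 4257 and 4172 CPM with Sal. P4HB is a protein disulfide isomerase, and its increase (log2 fold change 2.32 ± 0.17, adjusted p = 4.19e-09) again left no overlap. Calreticulin (CALR), a calcium-binding chaperone, was at 1182, 1571, 1579 and 1679 CPM in the controls and 3370, 5270, 4596 and 4453 CPM with Sal (log2 fold change 1.55 ± 0.18, adjusted p = 4.96e-07). HSP90B1, the ER member of the HSP90 family, rose from 944 ± 43.2 to 3065 ± 313 CPM (log2 fold change 1.69). SEC61G, a subunit of the channel through which proteins enter the ER, rose from 1485 ± 52.3 to 3545 ± 224 CPM (log2 fold change 1.25). TPT1, a widely expressed calcium-binding protein with several processed copies in the genome, completed the 6 largest gains in mean CPM (from 1102 ± 85.7 to 2849 ± 347 CPM, log2 fold change 1.37).

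Most of the ER response list rose with them. Of 22 members tested, 20 rose and 1 fell, 15 of them rising past both cutoffs, with a median log2 fold change of 1.68 against 0.00 for all genes. Of the sensors, ATF6 rose from 131 ± 13.1 to 438 ± 68.9 CPM (log2 fold change 1.73). ERN1, which encodes the sensor IRE1, rose from 25.2 ± 2.33 to 40.8 ± 1.71 CPM (log2 fold change 0.70). A second set of members returns misfolded protein to the cytosol for degradation. HERPUD1 was at 134, 151, 168 and 159 CPM in the controls and at 856, 1021, 1035 and 1047 CPM with Sal (log2 fold change 2.69 ± 0.27). The ubiquitin ligase SYVN1 rose from 123 ± 17.6 to 389 ± 56.2 CPM (log2 fold change 1.66). Its partner SEL1L rose from 91.1 ± 4.86 to 274 ± 54.4 CPM (log2 fold change 1.57). The co-chaperones DNAJB9, DNAJB11 and DNAJC3 had log2 fold changes of 1.6, 1.79 and 1.86, and HYOU1, a large ER chaperone, one of 1.77. The 1 member that fell was XBP1, whose spliced product is a driver of the response: 684, 585, 612 and 599 CPM in the controls and 420.5, 309, 337 and 341 CPM with Sal (log2 fold change -0.83 ± 0.14, adjusted p = 2.87e-05). Counts per gene do not separate spliced from unspliced XBP1. PDIA6 was at 683 ± 40.1 and 749.8 ± 43 CPM and did not pass the test. Per kilobase of annotated exon, CALR stood at 1578 CPM with Sal and HSPA5 at 594, against 536 and 58 in the controls.

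Some promoters of this list share a sequence word. The members are known genes of the ER stress response, so their share with a known word of that response is a description. The ER stress element, a CCAAT word followed 9 bases later by CCACG, was searched on both strands in the window from 250 bases before to 50 bases after each RefSeq start site. It was present in 6 of the 21 list promoters searched, in 22 of all 27305 promoters (0.0806%) and in 0.119% of those of tested genes. HSPA5, HSP90B1 and CALR had the largest gains in mean CPM among genes with this word, and XBP1 carries it and fell. The windows of these genes are therefore printed. They lie in GRCh38.p14, HSPA5 at chr9:125241294-125241593 on the minus strand, HSP90B1 at chr12:103930160-103930459 on the plus strand, CALR at chr19:12938359-12938658 on the plus strand and XBP1 at chr22:28800520-28800819 on the minus strand, each read 5′ to 3′ along its gene with the 2 words of each match in capitals (on the opposite strand they read CGTGG and ATTGG).
HSPA5: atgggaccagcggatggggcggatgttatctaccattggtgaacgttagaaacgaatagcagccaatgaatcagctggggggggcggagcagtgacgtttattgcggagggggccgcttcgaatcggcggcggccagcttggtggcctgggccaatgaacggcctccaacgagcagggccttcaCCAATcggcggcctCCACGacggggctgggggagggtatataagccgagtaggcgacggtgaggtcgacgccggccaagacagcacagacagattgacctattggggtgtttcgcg
HSP90B1: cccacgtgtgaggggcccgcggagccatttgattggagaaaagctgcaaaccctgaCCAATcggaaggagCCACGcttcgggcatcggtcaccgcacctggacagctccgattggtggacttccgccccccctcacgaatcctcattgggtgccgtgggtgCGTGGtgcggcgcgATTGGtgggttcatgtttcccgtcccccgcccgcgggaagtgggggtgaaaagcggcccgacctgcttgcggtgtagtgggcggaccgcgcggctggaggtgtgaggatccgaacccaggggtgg
CALR: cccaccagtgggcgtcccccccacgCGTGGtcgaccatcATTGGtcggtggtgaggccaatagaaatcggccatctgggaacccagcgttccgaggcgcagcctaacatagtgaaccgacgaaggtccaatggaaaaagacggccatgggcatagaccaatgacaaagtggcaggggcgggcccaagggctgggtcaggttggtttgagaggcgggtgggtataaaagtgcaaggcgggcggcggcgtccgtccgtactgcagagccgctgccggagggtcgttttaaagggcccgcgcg
XBP1: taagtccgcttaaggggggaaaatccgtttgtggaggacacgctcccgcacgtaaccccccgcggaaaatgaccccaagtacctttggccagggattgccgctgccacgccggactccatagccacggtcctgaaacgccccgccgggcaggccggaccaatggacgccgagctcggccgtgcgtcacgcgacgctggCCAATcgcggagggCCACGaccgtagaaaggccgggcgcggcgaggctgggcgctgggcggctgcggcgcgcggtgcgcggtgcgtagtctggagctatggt

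In these windows the element is centred 57 bases before the start of HSPA5 and 43 bases before that of XBP1, both on the gene's own strand. HSP90B1 has 2 matches, 185 and 80 bases before its start and on opposite strands. The match of CALR lies 216 bases before its start on the opposite strand. Of the 14 tested genes whose window holds the word, 8 rose, 1 fell and 5 did not pass, beside 30.8% rising and 33.7% falling among the 11736 tested genes with a window. Of the 14 genes, 6 belong to the ER list, and of the 8 outside it 3 rose (37.5%), none fell and 5 did not pass. Outside the list, the log2 fold changes were 1.88 for SERP1, 1.06 for FICD, 0.70 for EIF2A and 0.27 for ALG12. Those of TMEM120A, ERO1B, ZNF17 and TRIM5 were 0.16, 0.03, -0.06 and -0.23. All of these genes are named because their windows hold the word.

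Targets of ATF4, the factor downstream of PERK and of the amino acid sensor GCN2, divided into members that rose steeply and members that did not. Of 27 members tested, 12 rose and 6 fell, 8 rising past both cutoffs (median 0.24). DDIT3 was at 17.2, 9.63, 11.6 and 10.2 CPM in the controls and at 182, 151, 162 and 161 CPM with Sal. DDIT3 encodes CHOP, a transcription factor of prolonged ER stress, and its groups did not overlap (log2 fold change 3.78 ± 0.32, adjusted p = 1.82e-08), although 39.6% of its exon bases are also annotated to another gene. INHBE was at 0.376, 0.0996, 0.079 and 0.335 CPM in the controls and at 24.8, 12.1, 13.2 and 13.7 CPM with Sal. INHBE is a secreted TGF-beta family member (log2 fold change 6.13 ± 0.31, adjusted p = 8.08e-11). ATF3, a stress-induced transcription factor, rose from 15.6 ± 2.45 to 103 ± 27.6 CPM (log2 fold change 2.71). PPP1R15A, which lets translation resume, rose from 56.6 ± 9.01 to 209 ± 30.4 CPM (log2 fold change 1.89). The secreted proteins GDF15 and STC2 rose as well, GDF15 from 1.47 ± 1.62 to 6.2 ± 0.96 CPM (log2 fold change 2.26). STC2, a stanniocalcin, rose from 114 ± 21.8 to 359 ± 30.6 CPM (log2 fold change 1.66). FGF21, a secreted hormone of the same pathway and among the 12 largest rises of all genes, had 0.134, 0.0664, 0.079 and 0.224 CPM in the controls and 27.6, 17.3, 15.4 and 15.1 CPM with Sal (log2 fold change 7.15 ± 0.39, adjusted p = 1.98e-10).

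ATF4 mRNA itself was at 684, 669, 692 and 690.2 CPM in the controls and 757, 699.97, 668 and 653 CPM with Sal, which overlapped (log2 fold change 0.02 ± 0.10, adjusted p = 0.856). None of the 3 serine synthesis enzymes in the list rose. PHGDH, the first of them, fell from 733 ± 91.8 to 404 ± 109.9 CPM (log2 fold change -0.89). PSPH, the last, fell from 250.3 ± 16.2 to 152 ± 27.4 CPM (log2 fold change -0.73). PSAT1 was at 265 ± 39.2 and 267 ± 62.9 CPM. ASNS, the asparagine synthetase, had a log2 fold change of -0.23 that did not pass. CEBPB, a partner of ATF4, fell from 184 ± 32.4 to 75.4 ± 23.1 CPM (log2 fold change -1.31). The aminoacyl-tRNA synthetases, which charge tRNAs and are in part ATF4 targets, were more uniform: of 12 members tested, 9 rose and none fell. WARS1, for tryptophan, rose most (from 124 ± 6.23 to 475 ± 19.6 CPM, log2 fold change 1.94), followed by EPRS1 (1.18) and IARS1 (1.02). In the same promoter windows, the amino acid response word TGATGCAA was in 1 of 21 ATF4 target promoters (CHAC1). It was in 0.923% of all promoters and 0.52% of those of tested genes. Of 61 tested genes with the word, 45.9% rose and 29.5% fell, beside 30.8% and 33.7% of all tested genes with a window.

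**Figure D3:**
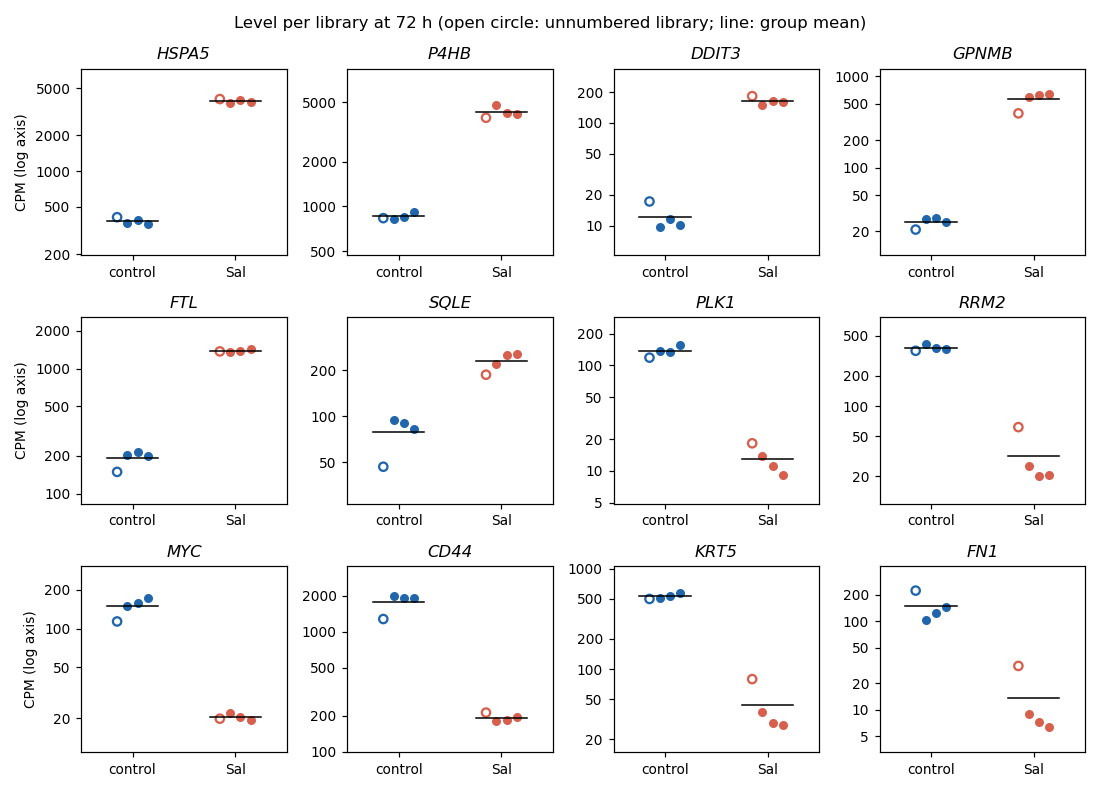
Level of 12 genes in each of the 8 libraries (y axis, CPM, log scale, with its own range in each panel) in the control and Sal groups at 72 h. Open circles are the unnumbered libraries, filled circles replicates 1 to 3, and lines the group means. The groups do not overlap for any of the 12. The unnumbered Sal library is the highest of its group for HSPA5, DDIT3, PLK1, RRM2, CD44, KRT5 and FN1, by the widest margin for RRM2, KRT5 and FN1. It is the lowest for P4HB, SQLE and GPNMB.

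Among genes of at least 5 CPM in the higher group whose groups did not overlap, the 12 steepest rises were in genes close to silent in the controls, several of them known from other tissues. MUC4, a membrane-bound mucin, reached the highest CPM of these, with 0.0537, 0.0332, 0.079 and 0.0839 CPM in the controls and 65.1, 49.8, 35.3 and 32.7 CPM with Sal. The control libraries held 9 MUC4 counts in all and the Sal libraries 6057, a ratio of 741 after scaling for depth (95% interval 390.1 to 1621, from an exact binomial interval that covers counting error only). HTRA3, a secreted serine protease, had 0 counts in every control and was at least 124-fold higher, measured against 3 counts per library. ATG9B, an autophagy membrane protein, had a ratio of 257 (95% interval 118 to 700.3, 6 against 1398 counts). SCN3B, a sodium channel subunit, had a ratio of 342 (95% interval 133 to 1258, 4 against 1243 counts). NAT16 had a ratio of 199.6 (95% interval 77.6 to 734, 4 against 725 counts). DMRT1, a transcription factor of the testis, and COL20A1, a collagen, had 1 count each over the 4 control libraries against 1129 and 1045 with Sal, and the lower ends of their intervals were 223 and 206. No overlap between the groups was a condition for choosing these genes, and with control counts this low they could pass the filter on low counts only through treated libraries, so these values are a description. COL20A1 was at 18.4, 4.74, 3.01 and 2.72 CPM with Sal, where the unnumbered library is far above the other 3. The other genes of the 12 largest rises had between 0 and 10 counts in each control library. RAB39B was at 0.269, 0.199, 0.105 and 0.0839 CPM in the controls and at 35.9, 40.7, 49.6 and 49.2 CPM with Sal. RAB39B is a small GTPase of vesicle traffic (log2 fold change 8.03 ± 0.64). TMEM151A reached 19.5 to 28.1 CPM with Sal (log2 fold change 8.14 ± 0.65). GRIN2C, an NMDA receptor subunit, reached 14.3 to 24.1 CPM (log2 fold change 7.7 ± 0.51). ARHGDIG, an inhibitor of small GTPases, reached 6.3 to 10.4 CPM (log2 fold change 7.48 ± 0.66).

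Genes of cell division fell together. All 34 mitosis genes tested fell, 30 of them past both cutoffs, with a median log2 fold change of -2.76 and no overlap between the groups for any of the 34, where 30.2% of all genes were lower with Sal and 29.4% higher without overlap. PLK1 was at 118, 137, 135 and 155 CPM in the controls and at 18.3, 13.8, 11 and 9.05 CPM with Sal. PLK1 is a mitotic kinase (log2 fold change -3.42 ± 0.31, adjusted p = 3.94e-08). KIF20A was at 177, 187, 176 and 184 CPM in the controls and at 26.2, 12.2, 9.83 and 8.56 CPM with Sal. KIF20A, a kinesin of cytokinesis, fell most of the list (log2 fold change -3.77 ± 0.41, adjusted p = 2.75e-07). The transcription factors that drive this wave fell as well. MYBL2 fell from 307 ± 28.3 to 30.4 ± 22 CPM (log2 fold change -3.51). FOXM1 fell from 143 ± 18.2 to 15.1 ± 7.41 CPM (log2 fold change -3.3). CENPF, a kinetochore protein with the highest mean CPM of the list, fell from 423 ± 13.9 to 56.3 ± 9.3 CPM (log2 fold change -2.92). The smallest decreases were those of MAD2L1 (-0.79) and AURKA (-1.0).

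Replication and repair genes fell too. Of 35 DNA replication genes tested, none rose and 33 fell (median -1.25), 13 past both cutoffs. RRM2 was at 354, 410.2, 375 and 369 CPM in the controls and at 61.8, 25.4, 20.04 and 20.6 CPM with Sal. RRM2 is the regulated subunit of ribonucleotide reductase, and the unnumbered Sal library stood above the other 3 (log2 fold change -3.64 ± 0.44, adjusted p = 8.50e-07). MCM10, a replication initiation factor, was at 11.2, 3.7, 3.21 and 3.25 CPM with Sal and between 36.3 and 41.5 CPM in the controls (log2 fold change -3.04 ± 0.37). TYMS, thymidylate synthase, fell from 203 ± 22.5 to 29.95 ± 12.7 CPM (log2 fold change -2.81), and 47.9% of its exon bases are shared with another annotated gene. PCNA, the polymerase clamp, fell from 453 ± 23.2 to 172 ± 21.8 CPM (log2 fold change -1.4). Of 22 homologous recombination and Fanconi genes tested, none rose and 21 fell (median -1.64). RAD54L, a motor protein of strand exchange, fell most (from 48.2 ± 5.26 to 6.64 ± 2.42 CPM, log2 fold change -2.91), followed by the nuclease EXO1 (-2.79) and the helicase BRIP1 (-2.73). FANCG, with the highest mean CPM of the list, fell from 130.4 ± 17.6 to 40.3 ± 13.5 CPM (log2 fold change -1.72). The list of CDK inhibitors and pocket proteins, the brakes of the cycle, did not move as a group. Of 15 members tested, 3 rose and 6 fell, beside 30.5% and 31.6% of all genes. CDKN1A, which encodes p21, rose from 42.5 ± 6.76 to 92.4 ± 32.9 CPM (log2 fold change 1.08), with 141, 80.9, 73.9 and 73.4 CPM in the Sal libraries. RBL2, a pocket protein of resting cells, rose from 179.5 ± 12.7 to 278 ± 50.6 CPM (log2 fold change 0.62). Its relative RBL1 fell from 32 ± 3.17 to 10.5 ± 2.54 CPM (log2 fold change -1.61). CDKN2A, which encodes p16, fell from 98.2 ± 9.3 to 36.6 ± 2.89 CPM (log2 fold change -1.42).

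The promoters of these genes were searched for the words of their known regulators in the same RefSeq windows and on both strands. The cell cycle homology region, TTTGAA, was in 18 of 28 mitosis promoters (64.3%), 15.4% of all promoters and 9.71% of those of tested genes. CCAAT, which does not overlap it, was in 20 of 28 (71.4%), 35.7% of all and 36.1% of those of tested genes. The E2F words TTTGGCGC and TTTCGCGC, which overlap when they face each other, were in 10 of 30 DNA replication promoters (33.3%). They were in 1.18% of all promoters and 1.9% of those of tested genes. The windows of PLK1 and CENPF are shown as mitosis promoters with TTTGAA in capitals, and that of MCM6 as a replication promoter with 4 E2F matches, both words in capitals. In GRCh38.p14 they are PLK1 at chr16:23678639-23678938 on the plus strand, CENPF at chr1:214602945-214603244 on the plus strand and MCM6 at chr2:135876394-135876693 on the minus strand.
PLK1: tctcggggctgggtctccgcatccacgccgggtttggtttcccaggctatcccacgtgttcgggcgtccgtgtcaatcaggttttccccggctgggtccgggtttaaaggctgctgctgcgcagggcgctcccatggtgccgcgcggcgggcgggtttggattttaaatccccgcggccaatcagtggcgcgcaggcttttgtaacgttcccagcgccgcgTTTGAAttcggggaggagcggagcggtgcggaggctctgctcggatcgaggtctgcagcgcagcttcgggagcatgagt
CENPF: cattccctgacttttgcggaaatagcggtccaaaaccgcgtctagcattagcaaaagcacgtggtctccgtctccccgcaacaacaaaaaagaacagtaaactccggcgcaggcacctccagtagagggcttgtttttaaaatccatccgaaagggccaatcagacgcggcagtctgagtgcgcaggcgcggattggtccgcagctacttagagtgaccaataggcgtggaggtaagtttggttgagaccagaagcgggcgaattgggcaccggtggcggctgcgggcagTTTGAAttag
MCM6: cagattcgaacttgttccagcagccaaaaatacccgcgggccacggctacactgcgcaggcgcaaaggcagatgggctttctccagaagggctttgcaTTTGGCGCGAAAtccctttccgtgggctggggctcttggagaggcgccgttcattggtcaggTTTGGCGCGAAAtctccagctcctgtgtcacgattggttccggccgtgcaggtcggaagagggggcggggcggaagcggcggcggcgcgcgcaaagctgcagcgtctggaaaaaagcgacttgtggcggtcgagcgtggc

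TTTGAA is centred 26 bases before the start of PLK1 and 43 bases after that of CENPF. The E2F matches of MCM6 form 2 overlapping pairs before its start. MCM6, a subunit of the replicative helicase, fell from 215 ± 16.4 to 84 ± 18.4 CPM (log2 fold change -1.37). Beyond the 3 lists of cell division, the 1119 tested genes with TTTGAA in the window fell in 40.04% and rose in 26.6% of cases. The 211 with an E2F word fell in 41.2% and rose in 29.4%. Of all 11736 genes with a window, 33.7% fell and 30.8% rose. The 3 lists do not hold every gene of cell division, so these shares may still include such genes. The 4241 tested genes with CCAAT, list members included, fell in 32.9% and rose in 32.4% of cases. A match describes the sequence and does not show that a factor binds there.

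Genes switched on by growth signals fell. Of 18 ERK target genes tested, none rose and 17 fell, 11 past both cutoffs (median -2.06). MYC was at 114, 151, 157 and 173 CPM in the controls and at 19.9, 22.2, 20.4 and 19.5 CPM with Sal. MYC, the growth-promoting transcription factor, was lower in every Sal library (log2 fold change -2.85 ± 0.18, adjusted p = 8.78e-10). DUSP6, a phosphatase that limits ERK and is induced by it, fell from 19.2 ± 3.07 to 1.49 ± 0.147 CPM (log2 fold change -3.66). ETV4, an ETS transcription factor, fell from 46.4 ± 4.3 to 6.75 ± 1.45 CPM (log2 fold change -2.78). IER3, an early response gene with the highest mean CPM of the list, fell from 1032 ± 123 to 159 ± 30.4 CPM (log2 fold change -2.71). EGFR was at 5191, 5875, 5513 and 5923 CPM in the controls and 4018, 4456, 4567 and 4719 CPM with Sal, which did not overlap but missed the cutoff (log2 fold change -0.34 ± 0.13, adjusted p = 0.0222). Its relatives ERBB2 and ERBB3 fell, with log2 fold changes of -0.97 and -0.70. The 3 genes of the EGFR family and ligand list that rose were ligands. EREG rose from 0.267 ± 0.0605 to 2.47 ± 0.825 CPM (log2 fold change 3.16). HBEGF rose from 4.52 ± 0.398 to 11.4 ± 1.98 CPM (log2 fold change 1.33). EPGN rose from 0.196 ± 0.179 to 0.917 ± 0.639 CPM (log2 fold change 2.23), although the lowest Sal library lay within the control range.

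Components and targets of 2 developmental pathways moved with them. Of 21 Wnt pathway genes tested, none rose and 19 fell (median -1.42). The ligand WNT10B fell from 2.53 ± 0.132 to 0.0881 ± 0.0487 CPM (log2 fold change -4.78). The ligand WNT5B fell from 1.48 ± 0.403 to 0.137 ± 0.0294 CPM (log2 fold change -3.33). TCF7, a transcription factor at the end of the pathway, fell from 35.8 ± 6.84 to 2.6 ± 0.531 CPM (log2 fold change -3.75). CTNNB1 was at 609.8, 505, 506 and 484 CPM in the controls and at 221, 126, 144 and 136 CPM with Sal. CTNNB1 encodes beta-catenin, which serves both the pathway and cell junctions (log2 fold change -1.77 ± 0.12, adjusted p = 1.46e-09). Of 13 Notch genes tested, none rose and 8 fell (median -0.61). The count of lower Notch genes dropped to 5 without Sal replicate 2 or 3, control replicate 3 or the unnumbered Sal library. The receptor NOTCH3 fell from 1414 ± 276 to 370.4 ± 116 CPM (log2 fold change -1.97), and its target HES1 fell from 109 ± 12.5 to 38.6 ± 2.79 CPM (log2 fold change -1.5). NRARP, a feedback inhibitor of the pathway, fell from 19.6 ± 1.79 to 5.98 ± 0.411 CPM (log2 fold change -1.71). YAP targets did not move as a group, and of 10 members tested, 3 rose and 4 fell, beside 30.5% and 31.6% of all genes. CCN2, a matrix-associated protein, fell from 21 ± 1.91 to 6.38 ± 1.68 CPM (log2 fold change -1.78). TGFB2, a growth factor, fell from 119 ± 13.7 to 40.2 ± 7.41 CPM (log2 fold change -1.58). ANKRD1, a nuclear ankyrin-repeat protein, rose from 3.73 ± 0.747 to 9.62 ± 1.04 CPM (log2 fold change 1.34). AMOTL2, with the highest mean CPM of the list, had a change of -0.36 on the log2 scale and did not pass (adjusted p = 0.0122), but passed under 4 alternatives, where the adjusted p was as low as 0.00167.

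Genes of basal and squamous epithelium were among those that fell furthest. Of 7 basal keratins tested, none rose and 5 fell (median -3.68). KRT5 was at 501, 507, 536 and 576 CPM in the controls and at 79.3, 37.6, 28.9 and 27.6 CPM with Sal. KRT5 is the defining keratin of the basal layer, and the unnumbered Sal library was the highest of its group (log2 fold change -3.68 ± 0.27, adjusted p = 4.95e-09). Its partner KRT14 was at 11.7, 15.9, 20.8 and 22.9 CPM in the controls and 0.65, 0.38, 0.426 and 0.14 CPM with Sal (log2 fold change -5.4 ± 0.32, adjusted p = 4.59e-10). KRT6B, a keratin of wounded skin, fell from 12.6 ± 0.933 to 0.228 ± 0.259 CPM (log2 fold change -5.72). KRT6A, whose sequence is near-identical to that of KRT6B so that reads may be misassigned between them, fell from 1.97 ± 0.103 to 0.0733 ± 0.0609 CPM (log2 fold change -4.74). KRT15 (-0.09) and KRT17 (0.27) did not pass the test. Several of the 12 steepest decreases, taken among genes of at least 5 CPM in the controls whose groups did not overlap, are products of squamous or secretory epithelium. PI3 was at 85.7, 85.9, 83 and 78.4 CPM in the controls and at 3.32, 1.04, 0.557 and 0.349 CPM with Sal. PI3 encodes elafin, an elastase inhibitor (log2 fold change -6.17 ± 0.47, adjusted p = 6.10e-09). S100A7A, a small calcium-binding protein of the epidermal cluster, was at 94, 73.7, 67.6 and 62.6 CPM in the controls and 6.32, 1.42, 1.21 and 0.908 CPM with Sal (log2 fold change -5.2 ± 0.28). OLFM4, a secreted glycoprotein, fell from 57.6 ± 17.6 to 1.38 ± 0.124 CPM (log2 fold change -5.28). CLCA2, a regulator of chloride channels, fell from 40.9 ± 7.26 to 1.03 ± 0.493 CPM (log2 fold change -5.21). CASP14, the caspase of cornifying skin and among the 6 largest losses in mean CPM, fell from 4741 ± 817 to 1745 ± 110.001 CPM (log2 fold change -1.45).

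Most of the remaining genes of those 12 act at membranes. ITGA9, an integrin subunit, was at 9.81, 10.1, 9.28 and 10.8 CPM in the controls and 0.025, 0.0346, 0 and 0.21 CPM with Sal (log2 fold change -7.23 ± 0.58). LRRC55, an accessory protein of potassium channels, fell from 28.4 ± 3.96 to 0.202 ± 0.0507 CPM (log2 fold change -7.11). FXYD6, a modulator of ion transport, fell from 8.07 ± 2.26 to 0.111 ± 0.113 CPM (log2 fold change -5.95). CNIH2, an accessory protein of glutamate receptors, fell from 27.2 ± 1.48 to 0.412 ± 0.328 CPM (log2 fold change -6.0). FAIM2, an inhibitor of Fas signaling, fell from 9.8 ± 2.23 to 0.0896 ± 0.0562 CPM (log2 fold change -6.75). PTGIS, the prostacyclin synthase, fell from 20.8 ± 2.91 to 0.469 ± 0.112 CPM (log2 fold change -5.41).

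Most adhesion and matrix genes tested fell with them. Several abundant cytoskeleton genes fell too, but cytoskeleton genes were not tested as a list. Of 23 integrin, laminin and matrix genes tested, none rose and 17 fell (median -1.08). FN1 was at 223, 103, 124 and 145 CPM in the controls and at 31.2, 8.95, 7.3 and 6.29 CPM with Sal. FN1 is fibronectin, and both unnumbered libraries were the highest of their group (log2 fold change -3.69 ± 0.29, adjusted p = 8.60e-09). TNC, another matrix glycoprotein, fell from 12.1 ± 2.53 to 1.08 ± 1.16 CPM (log2 fold change -3.6). ITGA5, a fibronectin receptor subunit, fell from 23.8 ± 6.51 to 5.21 ± 3.75 CPM (log2 fold change -2.33). ITGB4, the integrin of hemidesmosomes, fell from 177 ± 35.5 to 57.9 ± 19.3 CPM (log2 fold change -1.63). LAMA5, a laminin chain with the highest mean CPM of the list, was at 428, 207, 246 and 340.4 CPM in the controls and 429.8, 319, 227 and 213 CPM with Sal, which overlapped. Of the 6 largest losses in mean CPM, 5 were cytoskeletal genes. ACTB was at 4508, 4573, 4483 and 4689 CPM in the controls and at 1673, 1514, 1357 and 1338 CPM with Sal. This cytoplasmic actin was lower in every Sal library than in any control (log2 fold change -1.63 ± 0.12, adjusted p = 2.90e-09). Its near-identical paralog ACTG1 fell from 2777 ± 208 to 874 ± 280.5 CPM (log2 fold change -1.7). TUBB, a tubulin, fell from 3720 ± 267 to 1278 ± 28.7 CPM (log2 fold change -1.54). FLNA, an actin crosslinker, fell from 3934 ± 623 to 1940 ± 399.8 CPM (log2 fold change -1.03). ACTB, ACTG1 and TUBB have processed copies elsewhere in the genome, so their reads may be divided among loci. The luminal keratin KRT19 fell from 2845 ± 287 to 928 ± 283 CPM (log2 fold change -1.64). Of 11 luminal keratin and junction genes tested, 2 rose and 5 fell, and 5 rose with DESeq2, with all 32 libraries, with the 8 libraries alone or at an adjusted p under 0.05. KRT8 was the steepest decrease (from 1043 ± 194 to 314 ± 167 CPM, log2 fold change -1.82), and the junction protein CLDN3 rose from 52.4 ± 9.77 to 116 ± 30.9 CPM (log2 fold change 1.12). The direction of these common genes was the same with the size factors of DESeq2, with a median over all genes of 0.003 on the log2 scale. Both scalings take most genes as unchanged, so neither can show a shift shared by most genes.

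Lipid genes moved in both directions. Of 25 sterol genes tested, 13 rose and 3 fell (median 0.34). SQLE was at 46.8, 94.9, 90.7 and 83.3 CPM in the controls and at 187, 222, 251 and 256 CPM with Sal. SQLE, squalene epoxidase, and IDI1, isopentenyl diphosphate isomerase, rose most, with log2 fold changes of 1.57 ± 0.12 and 1.53 ± 0.12. In both genes the unnumbered library was the lowest of each group. HMGCS1, an early enzyme of the pathway, rose from 154 ± 23.5 to 292 ± 14.3 CPM (log2 fold change 0.93). Of 10 fatty acid genes tested, 2 rose and 4 fell, beside 30.5% and 31.6% of all genes. SREBF1, the transcription factor of this branch, fell from 159 ± 22.3 to 57.3 ± 20.7 CPM (log2 fold change -1.53). FASN, fatty acid synthase, fell from 1466 ± 357 to 655 ± 167 CPM (log2 fold change -1.18). The desaturase genes FADS1 and FADS2, neighbours on chromosome 11, rose. FADS1 went from 10.6 ± 2.04 to 25.3 ± 2.0 CPM, log2 fold change 1.27. FADS2 went from 8.33 ± 1.89 to 19.4 ± 4.39 CPM, log2 fold change 1.22. Of 7 LXR target and cholesterol export genes tested, 2 rose and 4 fell. ABCA1, a cholesterol exporter, fell from 2.9 ± 0.435 to 0.335 ± 0.406 CPM (log2 fold change -3.13). ABCG1, another exporter, fell from 9.39 ± 2.13 to 1.68 ± 1.13 CPM (log2 fold change -2.56). MYLIP, a ubiquitin ligase, fell from 37.3 ± 0.906 to 13.8 ± 8.29 CPM (log2 fold change -1.55), with 26.2, 10.2, 8.91 and 9.89 CPM in the Sal libraries. NR1H2, which encodes an LXR, rose from 68.5 ± 5.96 to 108 ± 20.1 CPM (log2 fold change 0.65).

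Among lysosome and autophagy genes, of 43 members tested, 21 rose and 8 fell (median 0.24), 5 rising past both cutoffs. GPNMB was at 20.9, 27.5, 28.1 and 25.1 CPM in the controls and at 394, 597, 629 and 643 CPM with Sal. GPNMB is a membrane glycoprotein of lysosomes and melanosomes (log2 fold change 4.46 ± 0.35, adjusted p = 8.68e-09), and its unnumbered Sal library was the lowest of the 4. MAP1LC3B, which coats autophagosomes, rose from 71.8 ± 2.95 to 379 ± 42.9 CPM (log2 fold change 2.4). WIPI1, which acts in their formation, rose from 39 ± 3.65 to 183 ± 22 CPM (log2 fold change 2.23). The cargo receptor SQSTM1 rose from 342 ± 35.1 to 985 ± 229 CPM (log2 fold change 1.51). MITF, a transcription factor of this program, rose from 10.7 ± 1.2 to 24.3 ± 4.59 CPM (log2 fold change 1.17). Its relative TFEB fell from 13.5 ± 1.47 to 8.88 ± 2.06 CPM (log2 fold change -0.62). The lysosomal protease CTSB fell from 347 ± 28.7 to 119.7 ± 15.3 CPM (log2 fold change -1.54). CTSD, another cathepsin, fell from 471 ± 63.7 to 271 ± 42.3 CPM (log2 fold change -0.80). PSAP, a lysosomal activator protein with the highest mean CPM of the list, was at 884, 689, 692 and 738 CPM in the controls and 1128, 871, 767 and 749 CPM with Sal, which overlap (log2 fold change 0.21 ± 0.09, adjusted p = 0.0472). The word GTCACGTG, the core of the lysosomal CLEAR element, was in 8 of 29 list promoters, 2.53% of all promoters and 4.22% of those of tested genes. Of 495 tested genes with the word, 36.6% rose and 27.1% fell, beside 30.8% and 33.7% of all tested genes with a window. Past both cutoffs, 6.26% of them were higher and 7.68% lower, beside 7.96% and 9.44%.

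Iron storage and membrane transport changed as well. FTL was at 149, 204, 214 and 199 CPM in the controls and at 1372, 1369, 1394 and 1439 CPM with Sal. FTL is the light chain of ferritin, which stores iron, and every Sal library stood far above the controls (log2 fold change 2.86 ± 0.25, adjusted p = 2.70e-08). The heavy chain FTH1 was at 1092, 1833, 1730 and 1803 CPM in the controls and 1718, 2059, 2426 and 2422 CPM with Sal (log2 fold change 0.44 ± 0.15, adjusted p = 0.0121). For FTH1, 63.2% of exon bases are shared with another annotated gene, and both ferritin genes have processed copies. TFRC, the transferrin receptor, rose from 484 ± 93.4 to 730.2 ± 90.1 CPM (log2 fold change 0.60). Of 10 iron genes tested, 6 rose and 2 fell. HMOX1, heme oxygenase, fell from 23.1 ± 4.02 to 10.8 ± 2.9 CPM (log2 fold change -1.1). The iron exporter SLC40A1 fell from 1.01 ± 0.0954 to 0.535 ± 0.0623 CPM (log2 fold change -0.93), with an adjusted p of up to 0.0128 when single libraries were left out (the unnumbered Sal library or control replicate 2). NRF2 targets, which defend against oxidants, did not move as a group. Of 15 members tested, 3 rose and 5 fell, beside 30.5% and 31.6% of all genes. AKR1C1, an aldo-keto reductase, fell from 32.7 ± 7.26 to 5.82 ± 1.51 CPM (log2 fold change -2.49). The exporter ABCC3 and the reductase AKR1B10 had log2 fold changes of -2.14 and -2.0. For the sodium, potassium and osmotic list, of 13 genes tested, 1 rose and 10 fell (median -0.81). The count of higher genes was 0 without the unnumbered library or replicate 1 of either group, in the numbered libraries alone and without the term for the unnumbered libraries. SLC12A2, the sodium-potassium-chloride cotransporter, fell from 335 ± 37.1 to 62.8 ± 10.9 CPM (log2 fold change -2.42). SGK1, a kinase that controls ion transport, fell from 6.8 ± 1.1 to 1.21 ± 0.492 CPM (log2 fold change -2.53). FXYD3, a modulator of ion transport, fell from 429 ± 66.5 to 141 ± 48.1 CPM (log2 fold change -1.65). Of the exon bases of FXYD3, CA9, TGFB2 and IER3, 38.1%, 35.7%, 34.2% and 38.9% are shared with other annotated genes.

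Energy and biosynthesis lists had medians closer to 0. Of 33 nuclear genes of oxidative phosphorylation tested, 9 rose and 2 fell (median 0.01), beside 30.5% and 31.6% of all genes. The count of lower genes was 5 with all 32 libraries or with the 8 libraries alone, 6 at an adjusted p under 0.05 and 0 without the term for the unnumbered libraries. NDUFS1, a subunit of complex I, rose from 144 ± 6.86 to 336 ± 12.8 CPM (log2 fold change 1.22). ATP5MC1, of the ATP synthase, had a log2 fold change of 1.21 and NDUFA2, of complex I, one of 0.94. ATP5F1B, with the highest mean CPM of its list, rose from 553 ± 92.3 to 769 ± 169 CPM (log2 fold change 0.47). It did not pass without the term for the unnumbered libraries (adjusted p = 0.0251). In NDUFA2 and ATP5F1B the unnumbered libraries lay above the others and the groups overlapped. Of 25 glycolysis and hypoxia genes tested, 5 rose and 12 fell (median -0.30). CA9, a carbonic anhydrase induced by hypoxia, fell from 214 ± 55.5 to 60.2 ± 20.8 CPM (log2 fold change -1.86). Lactate dehydrogenase (LDHA) fell from 1194 ± 122 to 506 ± 35.4 CPM (log2 fold change -1.24). Pyruvate kinase (PKM) fell from 1760 ± 179 to 751 ± 118 CPM (log2 fold change -1.23). GAPDH, with the highest mean CPM of its list, fell from 3484 ± 276 to 2102 ± 305 CPM (log2 fold change -0.73). Of 26 ribosome biogenesis genes tested, 12 rose and 9 fell, beside 30.5% and 31.6% of all genes. UTP20, of the small subunit processome, fell from 34.2 ± 4.41 to 4.4 ± 0.901 CPM (log2 fold change -2.96). TCOF1, which acts in ribosomal RNA transcription, fell from 147 ± 12.8 to 34.1 ± 5.92 CPM (log2 fold change -2.12). RRP12 rose from 42.2 ± 4.37 to 215 ± 24.5 CPM (log2 fold change 2.35). Nucleolin (NCL), with the highest mean CPM of its list, fell from 1358 ± 178 to 786 ± 127 CPM (log2 fold change -0.80). In contrast to the ER chaperones, the cytosolic heat shock genes did not rise as a group: of 12 members tested, 1 rose and 5 fell (median -0.18). HSP90AA1, the cytosolic counterpart of HSP90B1, fell from 1406 ± 28 to 523 ± 61.3 CPM (log2 fold change -1.43). HSPB1, a small heat shock protein, fell from 193 ± 33.3 to 92.5 ± 45.3 CPM (log2 fold change -1.14). HSPA8, the constitutive cytosolic relative of HSPA5, fell from 2277 ± 289 to 1310 ± 75 CPM (log2 fold change -0.78). The 1 member that rose was HSPA1B (0.34), which shares near-identical sequence with HSPA1A (0.02), and it did not pass without the unnumbered library or replicate 1 of either group.

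Immune genes were mostly lower. Of 30 interferon and MHC class I genes tested, 7 rose and 18 fell (median -0.87). OAS2, an antiviral enzyme, fell from 10.1 ± 0.399 to 0.642 ± 0.237 CPM (log2 fold change -4.0). Its relative OAS3 fell from 66.9 ± 5.87 to 13.4 ± 2.73 CPM (log2 fold change -2.32). B2M, the light chain of MHC class I, fell from 677 ± 82.2 to 355 ± 28.4 CPM (log2 fold change -0.93). STAT2 was at 48.9, 48.7, 49.7 and 49.8 CPM in the controls and at 271, 276, 287 and 278 CPM with Sal. STAT2 carries the interferon signal to the nucleus and rose, with no overlap between the groups (log2 fold change 2.5 ± 0.20, adjusted p = 1.19e-08). IRF7, an interferon regulatory factor, rose from 24.2 ± 3.09 to 70.8 ± 20.5 CPM (log2 fold change 1.52). ISG15, a ubiquitin-like protein, rose from 14.9 ± 7.97 to 33.8 ± 21.4 CPM (log2 fold change 1.14), with overlapping groups and the unnumbered library highest in each. Of 11 inflammatory genes tested, none rose and 10 fell (median -1.82). The chemokine CXCL1 fell from 4.22 ± 0.945 to 0.22 ± 0.0961 CPM (log2 fold change -4.22). The chemokine CCL20 fell from 2.44 ± 0.699 to 0.155 ± 0.0469 CPM (log2 fold change -3.97). TNF, a central inflammatory cytokine, fell from 2.06 ± 0.376 to 0.369 ± 0.22 CPM (log2 fold change -2.5). ICAM1, an adhesion receptor and the 1 member that did not pass, had a log2 fold change of 0.05. Of 14 prostanoid and coagulation genes tested, 1 rose and 12 fell (median -1.32). PROS1, the anticoagulant protein S, rose from 0.475 ± 0.215 to 7.38 ± 1.76 CPM (log2 fold change 3.94). PLAT, the tissue plasminogen activator, fell from 0.908 ± 0.542 to 0.0651 ± 0.0511 CPM (log2 fold change -3.67). PTGES3, with the highest mean CPM of its list, fell from 319 ± 18.2 to 217 ± 13.3 CPM (log2 fold change -0.56).

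Most genes used as markers of stem-like cells in breast tumors fell. Of 8 markers tested, 2 rose and 6 fell (median -1.38). CD44 was at 1278, 1971, 1926 and 1899 CPM in the controls and at 212, 179, 185 and 195 CPM with Sal. CD44, the hyaluronan receptor, was lower in every Sal library (log2 fold change -3.17 ± 0.17, adjusted p = 1.89e-10). ALDH1A3, an aldehyde dehydrogenase, fell from 990.5 ± 161 to 238 ± 63.2 CPM (log2 fold change -2.07), and 33.3% of its exon bases are shared with another annotated gene. ALDH1A1, its relative, fell from 111 ± 6.59 to 28.6 ± 6.17 CPM (log2 fold change -1.98). SOX9, a transcription factor of progenitor cells, fell from 262 ± 51.5 to 94.5 ± 10.6 CPM (log2 fold change -1.45). ABCG2, a drug efflux pump, was near silent in both groups, with 4 counts over the 4 controls and 31 over the 4 Sal libraries, a ratio of 8.53 (95% interval 3.02 to 33.3, counting error only). KLF4, the other marker that rose (log2 fold change 0.50), did not pass without the unnumbered library of either group, Sal replicate 2 or 3, or control replicate 1 or 2. Of 5 mesenchymal transition genes tested, 2 rose and 2 fell. ZEB1, a repressor of epithelial genes, rose from a low level (0.188, 0.0332, 0 and 0.224 to 0.625, 0.934, 0.917 and 0.838 CPM, log2 fold change 2.81 ± 0.47). FOXC1, a factor of basal-like tumors, fell from 141 ± 6.36 to 105 ± 11.2 CPM (log2 fold change -0.43). VIM (log2 fold change 0.68) passed, but its adjusted p was 0.0329 in the numbered libraries alone. The adjusted p of VIM was 0.0152 without control replicate 1 and was also above the cutoff without either unnumbered library. TWIST2 (-0.86) passed too, but not without Sal replicate 1, 2 or 3 or control replicate 2 or 3, where the adjusted p reached 0.0304.

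In the BCL2 family, which governs mitochondrial cell death, 3 of 15 genes tested rose and 9 fell (median -0.57). The steepest decreases were in death-promoting members, BIK (from 9.44 ± 3.62 to 2.57 ± 1.72 CPM, log2 fold change -1.95), BID (from 94.8 ± 18.4 to 25.6 ± 11.2 CPM, log2 fold change -1.94) and BOK (from 46.5 ± 2.76 to 19.8 ± 3.61 CPM, log2 fold change -1.24). BAK1, also death-promoting, was among those that rose, from 32.8 to 43.4 CPM (log2 fold change 0.39), but did not pass in the numbered libraries alone. The protective MCL1, with the highest mean CPM of its list, fell from 522 ± 26.9 to 328 ± 29.2 CPM (log2 fold change -0.67). For BIK and BID the unnumbered library was the highest of each group. Among 4 steroid receptor genes tested, ESR2, which encodes estrogen receptor beta, was at 0.134, 0.0332, 0.0527 and 0.0559 CPM in the controls and 1.1, 2.01, 1.41 and 1.82 CPM with Sal, with 1 to 5 counts in each control library and 43 to 58 in each Sal library. The groups did not overlap (log2 fold change 4.4 ± 0.39, adjusted p = 2.90e-08, and exact two-sided permutation p = 0.0286, the smallest possible). NR3C1, the glucocorticoid receptor, rose from 70.9 ± 6.84 to 91.2 ± 10.7 CPM (log2 fold change 0.36). It did not pass in the numbered libraries alone (adjusted p = 0.0119). ESR1, which encodes estrogen receptor alpha, was at 7.28 ± 0.725 and 8.61 ± 0.686 CPM.

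**Figure D4:**
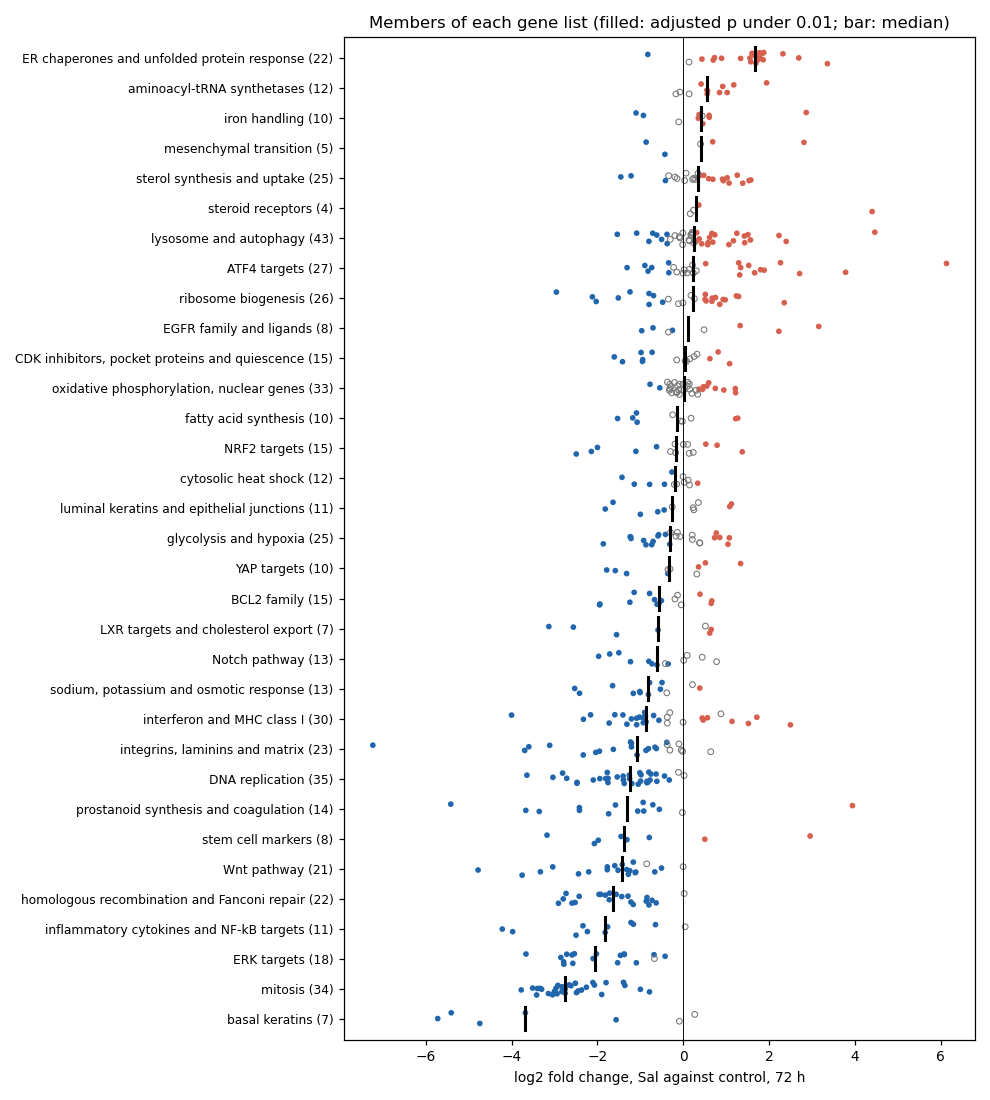
Log2 fold change (x axis, Sal against control at 72 h) of every tested member of the 33 gene lists with tested members (rows, number tested in parentheses), ordered by the list median (black bar). Filled points passed an adjusted p of 0.01 (red higher, blue lower) and open points did not. The ER chaperone list has the highest median (1.68) and the basal keratins the lowest (-3.68).

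At 24 h, with its own controls, the same dose of Sal had a smaller effect: in a model of all 32 libraries, 1443 genes (8.38%) were higher and 780 (4.53%) lower at the adjusted p alone, and 166 higher and 11 lower past both cutoffs. The difference between the 72 h and the 24 h response was tested directly in that model, so it need not equal the difference of the printed values exactly. It passed both cutoffs for 1609 of 17227 genes (9.34%), of which 556 were more positive at 72 h and 1053 more negative. At the adjusted p alone, 16% of genes were more positive and 20.7% more negative at 72 h. Of the mitosis genes, 33 of 34 were more negative at 72 h, and their median log2 fold change went from -0.62 at 24 h, where 3 passed, to -2.76. Of the ER chaperone list, 18 of 22 were more positive at 72 h, with medians of 0.48 and 1.68. HSPA5 had log2 fold changes of 1.06 at 24 h and 3.36 at 72 h (difference 2.32, adjusted p = 1.32e-06). HERPUD1 was already at 2.08 at 24 h, and its difference of 0.63 did not pass (adjusted p = 0.084).

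The sterol genes had the reverse order in time. At 24 h, 21 of 25 rose and none fell, with a median of 0.81, and at 72 h 13 rose with a median of 0.34. The difference was negative and past the adjusted p for 9 of them and positive for none. INSIG1, which holds sterol sensing in the ER, went from 1.19 to 0.48, and SQLE from 1.09 to 1.57. Among ATF4 targets, 16 rose at 24 h and 12 at 72 h: ASNS and DDIT4 were up at 24 h (0.60 and 1.17) and at -0.23 and -0.15 at 72 h, whereas DDIT3 went from 1.72 to 3.78 (difference 2.08, adjusted p = 2.76e-05). Of the basal keratins, 4 of 7 had fallen by 24 h, KRT5 with a log2 fold change of -0.83, and its difference between the times was -2.82. FN1 had a log2 fold change of -0.01 at 24 h and -3.69 at 72 h.

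**Figure D5:**
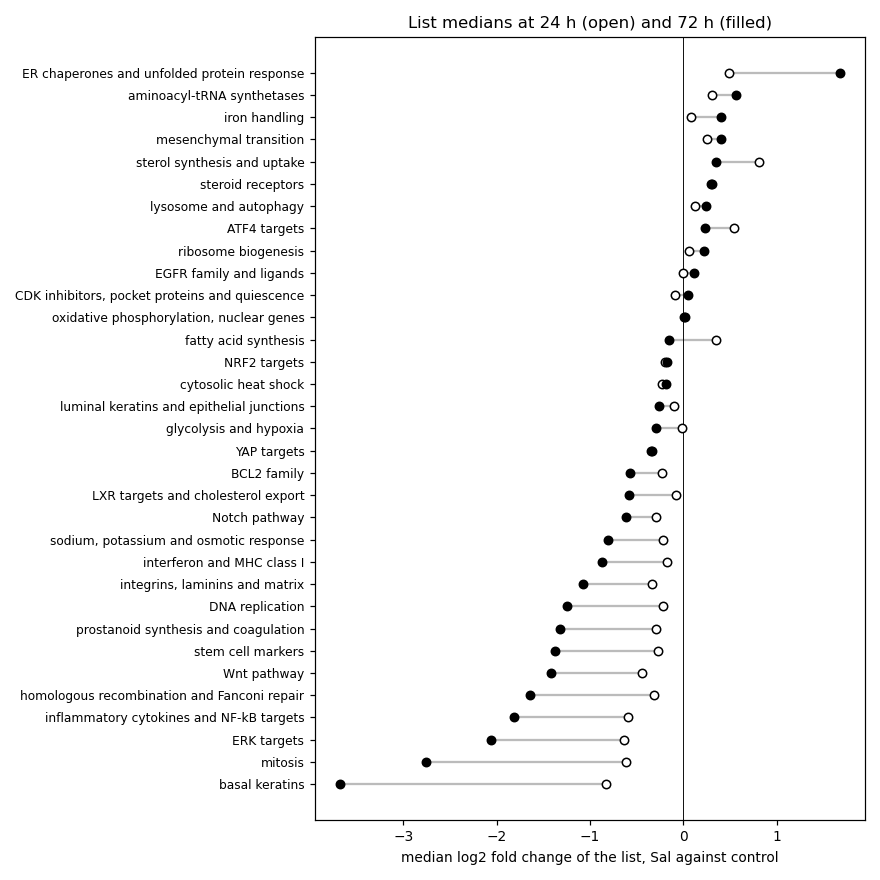
Median log2 fold change of each gene list with Sal (x axis) at 24 h (open circles) and at 72 h (filled circles), each against the controls of its own time point. The medians moved furthest from 24 h to 72 h for the basal keratins (-0.83 to -3.68) and mitosis (-0.62 to -2.76), and the sterol list moved toward 0.

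The 72 h libraries of Das and S+D were compared with the same control libraries, so the values are given side by side only. The log2 fold changes of HSPA5 were 3.36 for Sal, 1.5 for Das and 3.36 for S+D. PLK1 had -3.42, -1.33 and -3.6, and AKR1C1 had -2.49, -0.11 and -1.92. For DUSP6 the values were -3.66, -4.71 and -6.79.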

How the data were processed

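RNA of MDA-MB-468 cells was sequenced as single-end reads. According to the submitters' processing notes, the tools used before deposition were bcl2fastq 2.19, STAR 2.5.2, Cufflinks 2.1.1 and DESeq2, with GRCh37 as the genome build. The authors deposited 1 table of raw counts per gene for all libraries, and the counting program, its annotation and its strand setting are not given in the sources used here. Of 48804 genes listed, 46537 matched GENCODE v44 lifted to GRCh37, and 615 of 632 members of the gene lists matched. The mitochondrially encoded genes, TXNIP, ACACA, CD24, NCOA4 and PECAM1 were not analysed here.

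The counts were fitted with edgeR 4.0.16 in R 4.3.3 (quasi-likelihood test, scaling by trimmed mean of M values, genes kept by filterByExpr with a minimum count of 10, Benjamini-Hochberg adjustment). The model held the 16 libraries of 72 h, which share 1 estimate of the spread, with a term for the condition and a term for the unnumbered libraries. The difference between 72 h and 24 h came from the same kind of fit to 32 libraries. DESeq2 1.42.0 was an alternative, and the fits were tested on simulated data. The cutoffs were an adjusted p of 0.01 and a log2 fold change of 1.5. CPM and fold changes were computed from the deposited counts. The counts of every pair of replicates differed by more than counting noise, by a chi-square per degree of freedom of 2.8 for Sal replicates 2 and 3, 4.06 for control replicates 1 and 2 and 15.9 to 101 for the other pairs, so each library was counted as 1 replicate. Whether the closest pairs came from separate cultures was not tested.

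The members and lists were chosen with earlier results of these data known. Genes were named by rule: the 12 largest rises and 12 largest falls (at least 5 CPM, no overlap), the 6 largest gains and 6 largest losses in CPM, of each list the 3 largest changes and the member with the highest mean CPM, and ESR2. Other list members are named for their role, and a few genes that the rule picked are not reported here. Promoter windows are from RefSeq (GRCh38.p14), which matched 475 of 632 list genes and 11736 of 16682 tested genes, while the counts are on GRCh37, so no coordinates were compared between the 2 builds.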

Additional observations from a re-analysis of the deposited data

Results flagged for a closer look

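Single libraries far from the other 3 of their group were found in 40 of 257 gene and group pairs tested (15.6%), taking the named genes in each group at 72 h where the highest library reached 1 CPM. Dixon's criterion (the gap to the nearest library over the whole range, at the 95% level) marks about 1 in 20 groups by chance. The unnumbered library was the distant one in 35 of the 40. How the unnumbered libraries were made differently was not tested. In the unnumbered Sal library the values, against the range of the other 3, were COL20A1 18.4 CPM against 2.72 to 4.74, NAT16 3.77 CPM against 6.26 to 6.71, S100A7A 6.32 CPM against 0.908 to 1.42, CASP14 1909 CPM against 1673 to 1709, RRM2 61.8 CPM against 20.04 to 25.4, MCM10 11.2 CPM against 3.21 to 3.7, TYMS 48.9 CPM against 21.9 to 24.8, EXO1 18.2 CPM against 7.3 to 8.54, CDKN1A 141 CPM against 73.4 to 80.9, IDI1 319 CPM against 398 to 403, MYLIP 26.2 CPM against 8.91 to 10.2, INHBE 24.8 CPM against 12.1 to 13.7, HERPUD1 856 CPM against 1021 to 1047, NDUFA2 95.2 CPM against 44.8 to 50.3, FN1 31.2 CPM against 6.29 to 8.95, TNC 2.82 CPM against 0.454 to 0.524, ALDH1A3 332 CPM against 198 to 215, BIK 5.12 CPM against 1.38 to 1.92, BID 42.4 CPM against 18.8 to 21.6, HMOX1 15.1 CPM against 9.04 to 9.89, SGK1 1.95 CPM against 0.95 to 0.978, FXYD3 213 CPM against 115 to 118. In the unnumbered control library they were OLFM4 31.1 CPM against 66 to 67, CASP14 3517 CPM against 5075 to 5186, TYMS 236 CPM against 188 to 195, ATF3 19.2 CPM against 14 to 14.7, NDUFA2 45.7 CPM against 23.7 to 26.9, ATP5F1B 691 CPM against 500.4 to 517, PLAT 1.72 CPM against 0.615 to 0.664, ANKRD1 4.84 CPM against 3.22 to 3.49, CD44 1278 CPM against 1899 to 1971, BIK 14.8 CPM against 7.11 to 7.97, BID 122 CPM against 83.3 to 88.6, FTH1 1092 CPM against 1730 to 1833, AKR1C1 43.4 CPM against 27.4 to 30.1.

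Among the numbered libraries the distant values were KRT19 in control replicate 3 (3274 CPM against 2671 to 2726), MYBL2 in control replicate 3 (349.6 CPM against 292 to 294), AMOTL2 in control replicate 3 (277 CPM against 242 to 244), AMOTL2 in Sal replicate 1 (224 CPM against 184 to 190.2), CLDN3 in control replicate 3 (66.9 CPM against 45.8 to 49.3).

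The change with Sal at 72 h was unlike that at 24 h, past both cutoffs, for 71 of the 148 named genes (edgeR's quasi-likelihood test of the difference in log2 fold change, adjusted over 17227 genes), beside 9.34% of all genes tested. Most named genes were chosen for a large change at 72 h, which favours a difference between the times, so the count is a description. More positive at 72 h were ATG9B 6.41, SCN3B 5.2, GRIN2C 4.67, EPGN 4.24, ZEB1 3.07, INHBE 2.9, EREG 2.81, GPNMB 2.66, PROS1 2.61, HSPA5 2.32, DDIT3 2.08, ATF3 1.83, ANKRD1 1.8, FTL 1.73, STAT2 1.66, HSP90B1 1.51. More negative at 72 h were ITGA9 -6.2, LRRC55 -5.87, FAIM2 -5.73, PI3 -5.69, FXYD6 -5.38, CNIH2 -5.2, S100A7A -4.78, KRT6B -4.76, OLFM4 -4.66, CLCA2 -4.6, KRT14 -4.54, PTGIS -4.3, WNT10B -3.99, FN1 -3.66, KRT6A -3.52, OAS2 -3.52, PLAT -3.5, CCL20 -3.26, CXCL1 -3.16, TCF7 -3.04, RRM2 -2.99, MYBL2 -2.98, KIF20A -2.87, KRT5 -2.82, DUSP6 -2.72, CD44 -2.68, WNT5B -2.64, TNC -2.53, PLK1 -2.48, MCM10 -2.43, RAD54L -2.42, ABCA1 -2.34, EXO1 -2.33, CENPF -2.31, TYMS -2.3, BRIP1 -2.28, AKR1C1 -2.2, UTP20 -2.16, ABCG1 -2.09, ETV4 -2.06, IER3 -2.06, MYC -1.97, CASP14 -1.95, SLC12A2 -1.91, TNF -1.85, CA9 -1.76, ABCC3 -1.75, SREBF1 -1.74, OAS3 -1.68, ALDH1A3 -1.67, SGK1 -1.65, FASN -1.62, FXYD3 -1.55, BIK -1.52, NOTCH3 -1.51.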

How the results depend on the processing

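Of 94 recomputed counts of genes, 91 stayed within 1.5 times the reported count. The other 3 replaced the log2 fold change cutoff of 1.5 with a fold change of 1.5, which gave 4099 genes higher, 4206 lower and 5095 with a different response at 72 h and 24 h. Leaving out each library in turn gave 1529 to 1615 genes higher and 1564 to 1730 lower past both cutoffs, 4704 to 4898 higher and 4736 to 5070 lower at the adjusted p alone, and 1472 to 1919 with a different response at the 2 times. DESeq2 gave 1572 higher and 1624 lower and shared 3169 of the 3183 calls (99.6%), and the numbered libraries alone shared 2987 of them (93.8%). With a replicate block in place of the term for the unnumbered libraries, 1539 genes were higher and 1625 lower. The replicate numbers did not pair the numbered samples: the deviations of same-numbered Sal and control libraries correlated at -0.025, 0.213 and -0.044 for replicates 1, 2 and 3. Those of the unnumbered pair correlated at 0.532. Among named genes the block changed the call of TWIST2 only (log2 fold change -0.86, adjusted p = 0.0121 in edgeR's quasi-likelihood test, with a range of 0.00195 to 0.0304 over its alternatives). Of 2365 recomputed log2 fold changes of named genes, 2332 kept their direction and side of the cutoff, 17 lost the call, 10 gained it and 6 changed sign. The sign changes were in genes that did not pass. ATF4 was at -0.0271 in the numbered libraries alone and between -0.0277 and 0.0583 when single libraries were left out, ICAM1 between -0.0407 and 0.168, and LAMA5 between -0.187 and 0.112, with 0.000879 and 0.0259 among its positive values. FTH1 passed with DESeq2, with all 32 libraries, with the 8 libraries alone, without the low-count filter and without Sal replicate 1, EGFR passed with the 8 libraries alone, and AMOTL2 passed with DESeq2, with all 32 libraries, with the 8 libraries alone and without Sal replicate 1. Of 1122 recomputed list counts, 55 moved by more than 1.5 times, over 13 counts of few members. Beside those given with their lists, 1 integrin and matrix gene rose in place of none in the numbered libraries and with the 8 libraries alone, 2 coagulation genes rose in place of 1 without the low-count filter, and 1 steroid receptor rose in place of 2 in the numbered libraries. No mesenchymal transition gene fell without the term for the unnumbered libraries. For genes near 0 in the controls, depth limits the precision of the ratio, as the printed intervals show.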
